A study of Mus musculus with 48 samples.

Results

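Cpd6 and Cpd18 are 2 inhibitors of DGAT1 that were placed in the same chemical series and that differed in the skin of mice. Cpd6 caused atrophy of the sebaceous glands (skin-positive) and Cpd18 did not (skin-negative). Their structures are not given in the sources used here. Skin RNA of the 4 mice given Cpd6 and the 4 mice given Cpd18 in Study 4 was compared directly, across all genes on the array, which took in 8 of the 48 arrays of the series and 8 of the 12 arrays of Study 4. The comparison asks which transcripts separate a compound of the series that harms the gland from one that spares it. All mice were labelled C57BL/6, 8 weeks of age, and treatment lasted 14 days before skin of the back was taken. The methods describe male mice made obese on a high-fat diet, dosed by mouth, and name dorsal and/or ventral skin. The dose was taken as 30 mg/kg for both compounds, the one the methods give where no other is indicated. The plasma concentration listed for Cpd6 is higher than that for Cpd18, so equal doses were not equal plasma exposures. In skin both compounds are listed as below detection in Study 4. The paper found no correlation between plasma and skin exposure across its compounds. The 4 vehicle mice of Study 4 received methylcellulose. They were left out of the test, and their values are given only to show where untreated skin lies. Each array held the RNA of 1 mouse, as whole skin.

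DGAT1 joins a fatty acid to diacylglycerol in the last step of triglyceride synthesis, and DGAT2 carries out the same step with an unrelated protein. Sebocytes fill with triglycerides, wax esters and cholesterol esters and burst to release them as sebum onto the hair and the skin surface. Their lipids depend on fatty acid desaturases, elongases and wax synthases, several of which are found in few other cells of the skin. In whole skin, fewer cells of a type and less RNA per cell cannot be told apart.

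Values are base 2 logarithms of the deposited intensities, and a difference is Cpd6 minus Cpd18 on that scale, so a difference of −1 is a 2-fold lower signal with Cpd6. A probeset was called where limma's adjusted p, over all 28789 probesets tested, was under 0.05. The median signals of the 8 arrays lay between 29.01 and 30.78 on the linear scale, no arrays held identical values, and arrays of the same group of Study 4 correlated at 0.984 to 0.996. One property of the skin was unevenly spread over the mice. The mean signal of 21 genes of the hair shaft and inner root sheath, which are made in growing follicles, was 3.52, 3.63, 3.76 and 5.67 in the Cpd6 mice, 3.82, 7.70, 8.59 and 9.47 in the Cpd18 mice and 10.32, 3.54, 9.27 and 10.20 in the vehicle mice. The first Cpd18 mouse and the second vehicle mouse thus lay beside the Cpd6 mice. Of these 21 genes, 20 had a lower mean with Cpd6 and 18 had an unadjusted p under 0.05. Limma called 0 of them, and an ordinary t-test adjusted the same way called 0. That t-test called only 14 of the 28789 probesets, so its 0 in a list, here and below, says little. The 21 genes had a median difference of −3.84, beside −0.0003 over all tested probesets. Without Cpd18 replicate 1, 17 of the 21 were called. Their part in the other results was not tested beyond the values given beside the counts.

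**Figure D1:**
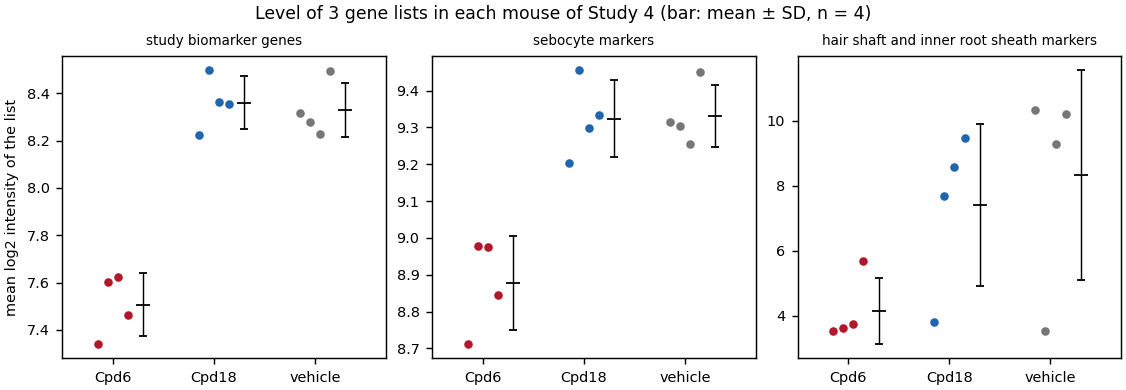
Mean log2 intensity of 3 gene lists in each mouse of Study 4, for Cpd6, Cpd18 and vehicle, with the mean and SD of 4 mice beside the points. The study biomarker genes and the sebocyte markers separated all 4 Cpd6 mice from all 4 Cpd18 mice, while the hair shaft markers of the first Cpd18 mouse lay at 3.82, within the 3.52 to 5.67 of the Cpd6 mice. The biomarker mean pools genes that the study found higher and genes it found lower with atrophy.

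The difference between the compounds was mostly a loss of signal with Cpd6. Limma called 135 of the 28789 probesets (0.469%), of which 118 were lower with Cpd6 (0.41%) and 17 were higher (0.0591%). They named 107 genes, 96 lower and 11 higher, of which 58 were in none of the gene lists used below, and 23 of the called probesets named no gene. The lists overlap, and several of their called members are also among the genes the study chose as markers of gland atrophy. At an unadjusted p under 0.05 there were 3521 probesets. These shares of all 28789 are the background for every list count below. The median called difference was −0.95 among the lower probesets and 0.69 among the higher ones. A change of over 2-fold was reached by 55 of the lower and 6 of the higher probesets, and one of over 4-fold by 16 of the lower and 1 of the higher. The 4 Cpd6 mice and the 4 Cpd18 mice did not overlap at 134 of the 135, beside 6.37% of all tested probesets. The exception was Wfdc18, a secreted protein of the whey acidic protein family, with 4.45, 5.60, 4.88 and 4.47 in the Cpd6 mice, 5.54, 7.27, 6.91 and 7.79 in the Cpd18 mice and 8.48, 6.47, 7.27 and 8.47 in the vehicle mice.

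**Figure D2:**
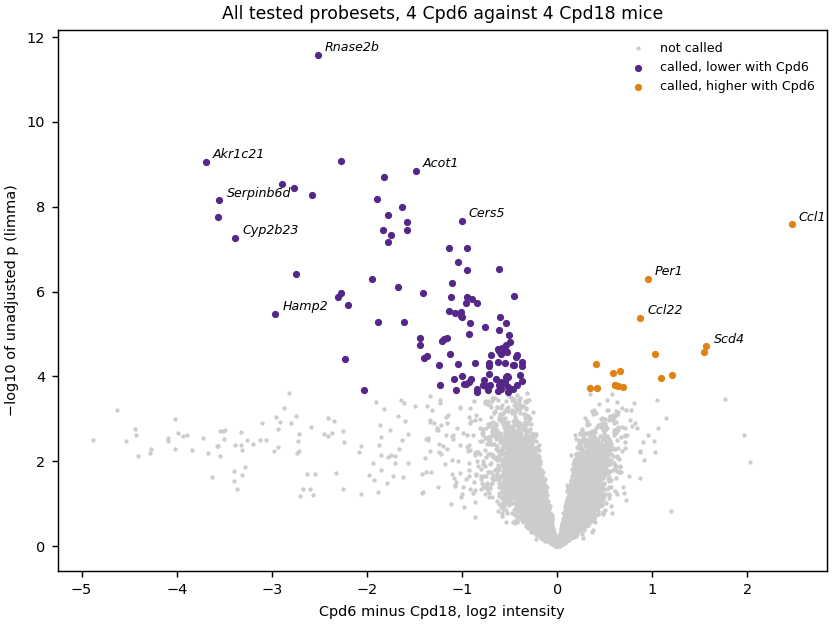
Difference between Cpd6 and Cpd18 mice (horizontal, log2 intensity) against −log10 of the unadjusted p of limma (vertical) for the 28789 tested probesets. The called probesets lie mostly on the left, 118 lower with Cpd6 (purple) against 17 higher (orange), and the grey points far to the left with modest p-values include the hair shaft genes.

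The first Cpd18 mouse, low in hair genes, lay on the Cpd18 side of all 4 Cpd6 mice at 134 of the 135 called probesets. That mouse was in the fit that made the calls, and its count follows from the 134 without overlap. The second vehicle mouse, also low in hair genes, lay above all 4 Cpd6 mice at 116 of the 118 lower probesets and below all 4 at 17 of the 17 higher ones. The called probesets were chosen for Cpd6 lying apart from Cpd18, and the same count over all tested probesets was not made. The part of hair state in this count was not tested. Leaving out Cpd18 replicate 1 gave 590 calls, 482 lower and 108 higher, and all 135 calls were among them. With the hair shaft score of each mouse as a covariate, chosen after the data were seen, 46 probesets were called and 43 of them were among the 135. Of the 53 called probesets that the naming rule picked, 24 kept their call with that covariate and 29 did not, with adjusted p-values of 0.0627 to 0.656. The score itself differed between the compounds, so this fit separates hair state from compound poorly. Some lost calls had a larger difference in it, as Hsd17b13 (1.53 beside 1.21) and Sema6a (0.71 beside 0.58). Others had a smaller one, as Mpo (−1.44 beside −2.23) and Hamp2 (−2.16 beside −2.96). The 24 were those of Akr1c21, Serpinb6c, Serpinb6d, Serpinb6e, Serpina3b, Serpina3j, Cyp2b23, Cyp2j12, Rnase2b, Apof, Aox4, Aadacl4, Aadacl4fm5, Acot1, Acox2, Acox3, Abhd3, Cers5, Elovl5, Lpcat3, Pnpla5, Per1, Ccl1 and 1 of the 2 for Scd3.

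The largest called fall was that of Akr1c21, an aldo-keto reductase that acts on steroids. Its signal was 3.23, 3.35, 3.31 and 2.94 in the Cpd6 mice, 6.39, 7.67, 6.87 and 6.69 in the Cpd18 mice and 6.35, 6.86, 6.05 and 7.14 in the vehicle mice, a difference of −3.70 (SE 0.23, adjusted p = 8.29e-06). No Cpd6 mouse came within 3 log2 units of the lowest Cpd18 mouse. Next came 2 serpins of 1 cluster, Serpinb6e and Serpinb6d, members of a family of intracellular protease inhibitors. Serpinb6e was at 3.29, 2.67, 3.15 and 3.34 in the Cpd6 mice, 6.03, 7.56, 6.88 and 6.24 in the Cpd18 mice and 6.73, 7.10, 6.55 and 6.71 in the vehicle mice. Serpinb6d was at 2.71, 2.52, 2.85 and 2.32 in the Cpd6 mice, 5.51, 5.85, 7.01 and 6.25 in the Cpd18 mice and 7.59, 7.33, 6.46 and 7.06 in the vehicle mice. The differences of −3.56 (SE 0.29, adjusted p = 3.82e-05) for Serpinb6e and −3.55 (SE 0.26, adjusted p = 2.02e-05) for Serpinb6d put the mean Cpd6 signal of Serpinb6d under 2.93, the lowest mean over all arrays that a tested probeset could have, and that of Serpinb6e just above it. Cyp2b23, a cytochrome P450, was at 4.26, 5.11, 5.92 and 5.81 in the Cpd6 mice, 8.35, 8.999, 8.79 and 8.49 in the Cpd18 mice and 8.74, 8.73, 8.28 and 9.004 in the vehicle mice. It differed by −3.38 (SE 0.30, adjusted p = 7.75e-05), with no overlap between the compounds.

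**Figure D3:**
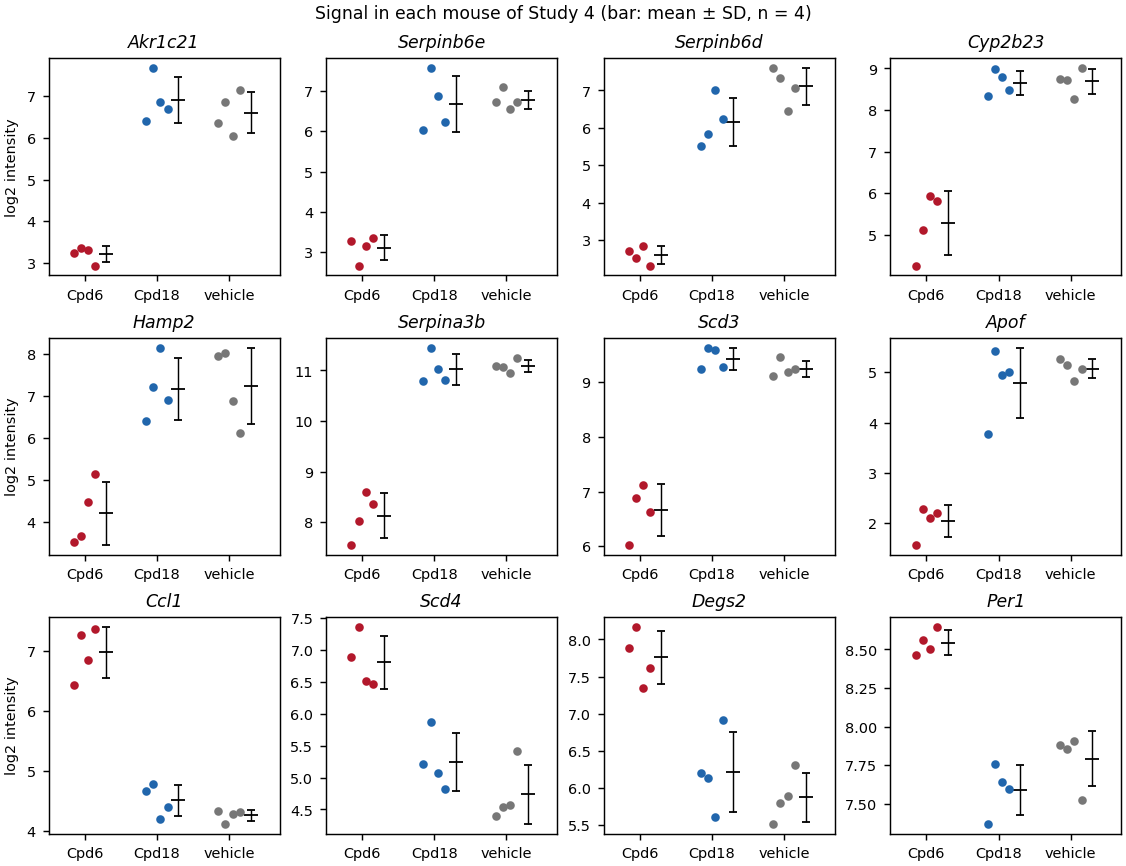
Log2 intensity in each mouse of Study 4 for 8 genes that were lower and 4 that were higher with Cpd6, with Cpd6, Cpd18 and vehicle from left to right and the mean and SD of 4 mice beside the points. The genes were picked among called ones whose mice did not overlap, so in each panel the 4 Cpd6 mice stand apart from the 4 Cpd18 mice. The Cpd18 mice lie among or near the vehicle mice.

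Among secreted proteins, Hamp2, of the hepcidin family, had 3.53, 3.67, 4.48 and 5.14 in the Cpd6 mice, 6.41, 7.21, 8.15 and 6.89 in the Cpd18 mice and 7.96, 8.02, 6.87 and 6.12 in the vehicle mice. Serpina3b, a serpin of the antichymotrypsin group, had 7.55, 8.02, 8.60 and 8.35 in the Cpd6 mice, 10.79, 11.45, 11.03 and 10.81 in the Cpd18 mice and 11.09, 11.08, 10.95 and 11.25 in the vehicle mice, and its neighbour Serpina3j fell with it, by 2.28 on the log2 scale. Both serpins were abundant in Cpd18 skin and clearly measured in Cpd6 skin. Apof, an apolipoprotein that in humans inhibits lipid transfer between lipoproteins, had 1.57, 2.28, 2.11 and 2.20 in the Cpd6 mice, 3.78, 5.41, 4.95 and 5.00 in the Cpd18 mice and 5.25, 5.15, 4.82 and 5.06 in the vehicle mice, which put all 4 Cpd6 mice near the low end of the scale. The differences were −2.96 (SE 0.38, adjusted p = 0.00216) for Hamp2, −2.89 (SE 0.20, adjusted p = 1.41e-05) for Serpina3b and −2.75 (SE 0.29, adjusted p = 0.000417) for Apof. The smallest p belonged to Rnase2b, which the paper lists as Ear5, a ribonuclease of the eosinophil-associated family. Rnase2b was at 9.44, 9.54, 9.94 and 9.81 in the Cpd6 mice, 12.20, 12.14, 12.19 and 12.27 in the Cpd18 mice and 12.08, 12.21, 12.14 and 12.33 in the vehicle mice, a difference of −2.52 (SE 0.10, adjusted p = 7.54e-08). The 4 Cpd18 mice were nearly equal there and the vehicle mice lay with them. It was the 1 called gene of 6 measured in its family list, and its neighbour Rnase1, a secreted ribonuclease outside that list, was called at −0.90. Crygn, a lens crystallin gene, and Mpo, the myeloperoxidase of neutrophils, were also lower, by −2.30 and −2.23. The Mpo call was lost without Cpd6 replicate 1 or 4 or Cpd18 replicate 4. The mast cell and granulocyte list, which does not include Mpo, held 0 called genes of 16 by limma and 0 by the adjusted t-test, with 2 at an unadjusted p under 0.05 and a median of −0.09.

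Some called genes lay beside each other. With the gene positions of RefSeq, 33 of the 106 called genes that could be placed were less than 500 kb from another, in 15 groups, most of them copies of 1 gene family. Whether as many other genes would lie as close was not tested. The largest falls included 1 such group on chromosome 13, in which the 3 tested genes from Serpinb6d to Serpinb6c were all called. Serpinb6c was at 7.04, 6.55, 7.19 and 6.86 in the Cpd6 mice, 8.48, 8.41, 8.54 and 8.53 in the Cpd18 mice and 8.06, 8.33, 8.04 and 8.50 in the vehicle mice and differed by −1.57 (SE 0.13, adjusted p = 4.33e-05). Its relatives Serpinb6a and Serpinb6b had differences of 0.09 and 0.00 and were not called. Over the 31 tested serpins 6 were called lower and 0 higher, with a median of −0.06. These were the 3 of this group, Serpina3b, Serpina3j and Serpinb1c. Probes of such close copies can bind each other's RNA, and this was not tested. The start regions of Serpinb6d and Serpinb6e are shown because these genes had almost the same difference. Each sequence is 300 bases long, 250 before the gene's start and 50 after it (RefSeq, build GRCm38.p6), read 5′ to 3′ on the gene's strand, and capitals mark AGGTCA or its reverse complement TGACCT, the half-site shared by many nuclear receptors. The first is chr13:33661155-33661454, plus strand, and the second is chr13:33843359-33843658, minus strand.
Serpinb6d: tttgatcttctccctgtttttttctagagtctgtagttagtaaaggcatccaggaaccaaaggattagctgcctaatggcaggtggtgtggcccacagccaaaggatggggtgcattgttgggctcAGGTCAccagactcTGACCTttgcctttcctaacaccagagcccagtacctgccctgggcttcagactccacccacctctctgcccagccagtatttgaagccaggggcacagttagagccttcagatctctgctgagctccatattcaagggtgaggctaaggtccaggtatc
Serpinb6e: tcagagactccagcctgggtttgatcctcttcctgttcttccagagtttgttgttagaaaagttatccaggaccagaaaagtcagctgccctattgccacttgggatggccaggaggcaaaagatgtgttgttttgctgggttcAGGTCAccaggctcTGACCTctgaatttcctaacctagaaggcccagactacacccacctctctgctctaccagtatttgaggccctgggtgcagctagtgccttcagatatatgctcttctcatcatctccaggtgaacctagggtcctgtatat
The windows were identical at 216 of 277 aligned bases (78.0%), and both held AGGTCA and TGACCT at the same distance from each other, starting at bases 127 and 141 in Serpinb6d and at bases 145 and 159 in Serpinb6e. AGGTCA was present on either strand in 16% of 27025 such windows, and on both strands in 0.777%. The Serpinb6c window held neither and was 57.2% identical to that of Serpinb6d. The match of letters says nothing of binding.

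The enzymes of fatty acid desaturation split by gene. Stearoyl-CoA desaturases put the first double bond into saturated fatty acids, and mice have 4. Scd3, the one known as specific to sebocytes, was at 6.03, 6.89, 7.11 and 6.62 in the Cpd6 mice, 9.24, 9.62, 9.59 and 9.28 in the Cpd18 mice and 9.11, 9.46, 9.19 and 9.24 in the vehicle mice. It differed by −2.77 (SE 0.19, adjusted p = 1.45e-05), and its other probeset by −2.20 (SE 0.27, adjusted p = 0.00146). Scd4 went the other way. It was at 6.89, 7.36, 6.52 and 6.46 in the Cpd6 mice, 5.21, 5.88, 5.07 and 4.81 in the Cpd18 mice and 4.40, 4.54, 4.57 and 5.42 in the vehicle mice, a difference of 1.57 (SE 0.24, adjusted p = 0.00868), so every Cpd6 mouse was above every Cpd18 mouse. Scd1, the main desaturase of skin, was at 13.06, 12.87, 13.02 and 13.00 in the Cpd6 mice, 12.97, 12.83, 13.03 and 12.79 in the Cpd18 mice and 13.00, 12.94, 13.03 and 12.91 in the vehicle mice. It differed by 0.08 (SE 0.06, adjusted p = 0.653) with a 95% interval of −0.06 to 0.22, and Scd2 by −0.03 (SE 0.07, adjusted p = 0.907) with an interval of −0.18 to 0.13. Scd1 and Scd2 had 2 tested probesets each, and these values are of the brighter. Whether a signal as bright as that of Scd1 still follows its RNA was not tested. Any difference between the compounds in Scd1 and Scd2 was, by these probesets, small next to those of Scd3 and Scd4. The genes lie in 1 cluster on chromosome 19, and the start regions of the 2 that moved in opposite directions are shown, with the letters TTTAAA in capitals, which begin 44 bases before the gene's start in Scd3 and 30 before it in Scd4. Scd3 is chr19:44203038-44203337 and Scd4 is chr19:44333076-44333375, both on the plus strand of GRCm38.p6 (RefSeq).
Scd3: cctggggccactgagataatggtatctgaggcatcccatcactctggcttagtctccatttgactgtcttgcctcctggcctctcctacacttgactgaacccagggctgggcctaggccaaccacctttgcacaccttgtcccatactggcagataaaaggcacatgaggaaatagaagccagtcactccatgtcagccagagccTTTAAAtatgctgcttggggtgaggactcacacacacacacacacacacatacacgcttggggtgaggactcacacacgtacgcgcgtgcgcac
Scd4: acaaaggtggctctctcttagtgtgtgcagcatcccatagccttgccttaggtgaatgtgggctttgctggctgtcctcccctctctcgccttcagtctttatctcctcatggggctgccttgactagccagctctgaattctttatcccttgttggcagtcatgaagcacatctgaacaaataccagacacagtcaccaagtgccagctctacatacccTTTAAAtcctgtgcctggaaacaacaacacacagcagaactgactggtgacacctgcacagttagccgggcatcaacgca
TTTAAA began at base 207 in Scd3 and at base 221 in Scd4, and 13.2% of all windows held it. The 2 windows were identical at 184 of 278 aligned bases (66.2%). Neither held AGGTCA or the letters TATAAA on either strand, which 16% and 14.2% of all windows did.

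**Figure D4:**
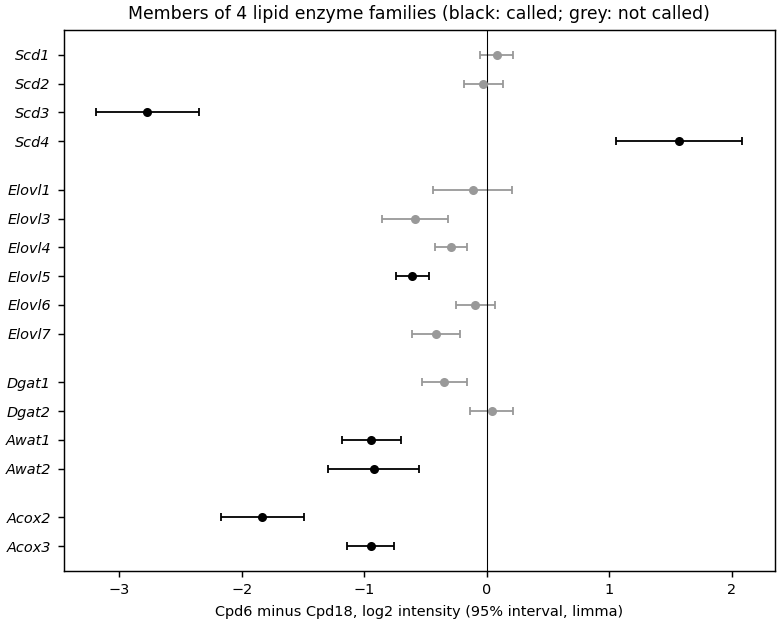
Difference between Cpd6 and Cpd18 mice on the log2 scale, with the 95% interval of limma, for the measured desaturases (Scd), elongases (Elovl), acyltransferases (Dgat, Awat) and acyl-CoA oxidases (Acox), 4 mice per group. Black points were called and grey ones were not, and Scd3 and Scd4 lie on opposite sides of 0.

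The gene of the drug target was not called. Dgat1 was at 10.55, 10.69, 10.84 and 10.59 in the Cpd6 mice, 10.82, 11.14, 11.10 and 11.01 in the Cpd18 mice and 10.83, 10.91, 10.97 and 10.86 in the vehicle mice, a difference of −0.35 (SE 0.09, adjusted p = 0.123) with a 95% interval of −0.53 to −0.16. Dgat2 differed by 0.04 (SE 0.08, adjusted p = 0.889), with a 95% interval of −0.14 to 0.21. The 2 wax synthases, which lie within 1 cluster on the X chromosome, were both lower with Cpd6. Awat1, which esterifies long-chain alcohols, was at 8.81, 9.28, 9.26 and 9.16 in the Cpd6 mice, 9.89, 10.24, 10.05 and 10.12 in the Cpd18 mice and 9.99, 10.06, 10.01 and 10.38 in the vehicle mice. Awat2, which makes wax esters and in mice also retinyl esters, was at 5.08, 5.70, 5.50 and 5.49 in the Cpd6 mice, 6.02, 6.39, 6.71 and 6.33 in the Cpd18 mice and 6.49, 6.43, 6.26 and 6.08 in the vehicle mice. The differences were −0.95 (SE 0.11, adjusted p = 0.00106) for Awat1 and −0.92 (SE 0.17, adjusted p = 0.0359) for Awat2, and the Awat2 call was kept only in the fits without Cpd6 replicate 2 or Cpd18 replicate 1. Far1, which reduces fatty acids to the alcohols of waxes, differed by −0.37 (SE 0.07, adjusted p = 0.0347) and kept its call only without Cpd18 replicate 1. Over the 19 measured genes of triglyceride and wax synthesis these 3 were called lower and 0 higher, with a median of −0.01. The 16 others, from the glycerol phosphate acyltransferases to the lipins, lay between −0.35 and 0.24.

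Fatty acid elongation was lower at 3 of its 11 measured genes and higher at 0 (median −0.29). Elovl5, which elongates polyunsaturated fatty acids, was at 12.07, 11.98, 12.09 and 12.03 in the Cpd6 mice, 12.65, 12.64, 12.80 and 12.52 in the Cpd18 mice and 12.58, 12.68, 12.60 and 12.68 in the vehicle mice, a difference of −0.61 (SE 0.06, adjusted p = 0.00034). The spread within each group was under 0.3, so the modest difference stood clear of it. Hsd17b12 and Hacd2, the reductase and a dehydratase of the elongation cycle, differed by −0.43 (SE 0.07, adjusted p = 0.0117) and −0.37 (SE 0.06, adjusted p = 0.0182). The dimmer probeset of Hacd2 was also called, at −0.54 (SE 0.07, adjusted p = 0.00299). Elovl3, an elongase of sebaceous and brown fat lipids, was at 8.17, 8.53, 8.60 and 8.18 in the Cpd6 mice, 8.77, 9.14, 8.83 and 9.09 in the Cpd18 mice and 8.70, 8.80, 8.75 and 9.42 in the vehicle mice, and its difference of −0.59 (SE 0.13, adjusted p = 0.0741) was not called. Elovl4, Elovl7, Elovl6 and Elovl1 had differences of −0.29, −0.42, −0.09 and −0.12 and were not called either. In fatty acid synthesis and desaturation, 2 of 21 measured genes were lower and 1 was higher (median −0.24). These were Scd3, Scd4 and Acss2, which makes acetyl-CoA from acetate and differed by −0.63 (SE 0.10, adjusted p = 0.0161). Fasn and Acly, the fatty acid synthase and the citrate lyase that feeds it, had −0.24 and −0.38 without a call. In cholesterol synthesis 1 of 18 was lower by the brightest probeset, Tm7sf2, a sterol reductase, by −0.63 (SE 0.10, adjusted p = 0.00975), and 10 of the 18 had an unadjusted p under 0.05 (median −0.27). The dimmer of 2 probesets of Cyp51, a sterol demethylase, was also called, at −0.52. With the vehicle arrays in the fit, 4 of the 18 were called lower. The calls of Hsd17b12 and Acss2 were lost without Cpd6 replicate 1 or 4, and that of the brighter Hacd2 probeset without Cpd6 replicate 1, 2 or 4 or Cpd18 replicate 3.

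Among enzymes that oxidise fatty acids, the called genes were peroxisomal. Acox2, a peroxisomal oxidase for bile acid precursors and branched fatty acids, was at 6.58, 6.87, 7.26 and 6.58 in the Cpd6 mice, 8.39, 8.85, 8.64 and 8.74 in the Cpd18 mice and 8.40, 8.31, 8.19 and 8.83 in the vehicle mice, a difference of −1.83 (SE 0.16, adjusted p = 5.77e-05). Acox3, its relative for branched chains, was at 9.46, 9.66, 9.82 and 9.68 in the Cpd6 mice, 10.53, 10.71, 10.69 and 10.49 in the Cpd18 mice and 10.58, 10.53, 10.32 and 10.63 in the vehicle mice, a difference of −0.95 (SE 0.09, adjusted p = 0.000119). In both genes the lowest Cpd18 mouse was well above the highest Cpd6 mouse. Acox3 had 3 tested probesets, of which only 1, the brightest, was called. With Far1, Acox2 and Acox3 made 3 lower and 0 higher of 22 peroxisomal genes (median −0.25, 12 at an unadjusted p under 0.05). In mitochondrial fatty acid oxidation limma called 0 of 21, the adjusted t-test 0, and 7 had an unadjusted p under 0.05 (median −0.07). The smallest p of that list belonged to Eci2, an enoyl-CoA isomerase, and Cpt1b, the muscle carnitine palmitoyltransferase, with −0.36 and 0.37. Acot1, a cytosolic acyl-CoA thioesterase, was at 8.17, 7.97, 8.24 and 8.12 in the Cpd6 mice, 9.65, 9.72, 9.68 and 9.40 in the Cpd18 mice and 9.78, 9.38, 9.42 and 9.78 in the vehicle mice, a difference of −1.49 (SE 0.10, adjusted p = 1.01e-05). Acot1 and Fabp5, the epidermal fatty acid binding protein with a difference of −0.92 (SE 0.12, adjusted p = 0.00299), were the 2 called genes of 20 in the PPAR target list (median −0.02). Pdk4 and Angptl4, targets that PPARs induce in many tissues, had 0.22 and −0.17 and were not called.

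Lipid droplet genes were lower at 3 of 18 and higher at 0 (median −0.03). Pnpla5, a lipase of the patatin family, was at 8.03, 8.74, 8.82 and 8.48 in the Cpd6 mice, 9.74, 10.60, 10.27 and 10.13 in the Cpd18 mice and 10.22, 10.20, 9.94 and 10.51 in the vehicle mice, a difference of −1.67 (SE 0.19, adjusted p = 0.000723). Cidea, which enlarges lipid droplets in sebocytes and brown fat, was at 9.62, 9.92, 9.96 and 9.66 in the Cpd6 mice, 10.25, 10.53, 10.36 and 10.46 in the Cpd18 mice and 10.38, 10.30, 10.08 and 10.41 in the vehicle mice, a difference of −0.61 (SE 0.10, adjusted p = 0.0106) that lost its call without Cpd6 replicate 4. Abhd3, a phospholipase, differed by −1.04 (SE 0.17, adjusted p = 0.0171) and lost its call in 4 of the 8 fits without 1 mouse (Cpd6 replicates 1, 2 and 4 and Cpd18 replicate 3). Of 16 adipocyte markers limma called 0 and the adjusted t-test 0, with 0 at an unadjusted p under 0.05 and a median of 0.03. Ceramide metabolism held calls in both directions, 2 lower and 1 higher of 27 (median −0.05). Cers5, a ceramide synthase that prefers palmitate, was at 10.23, 10.22, 10.43 and 10.33 in the Cpd6 mice, 11.30, 11.35, 11.47 and 11.12 in the Cpd18 mice and 11.42, 11.42, 11.37 and 11.49 in the vehicle mice, a difference of −1.01 (SE 0.08, adjusted p = 4.33e-05). Sgpl1, which cleaves sphingosine phosphate, differed by −0.54 (SE 0.08, adjusted p = 0.0106) at the 1 called of its 2 tested probesets. Degs2, which adds the hydroxyl group of phytoceramides, was at 7.89, 8.17, 7.35 and 7.62 in the Cpd6 mice, 6.20, 6.13, 5.60 and 6.92 in the Cpd18 mice and 5.51, 5.79, 5.88 and 6.30 in the vehicle mice, a difference of 1.54 (SE 0.24, adjusted p = 0.0109). The other ceramide synthases, Cers2, Cers3, Cers4 and Cers6, had differences of 0.07, 0.14, −0.34 and 0.27 and were not called. Lpcat3, which puts polyunsaturated chains into phospholipids, was the 1 lower gene of 11 LXR and SREBP1 targets, by −0.62 (SE 0.09, adjusted p = 0.00423). Its vehicle mice, at 9.84, 9.74, 9.64 and 9.91, had a mean between those of the compounds.

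Retinoid and steroid enzymes held calls as well. Aox4, a retinal oxidase made in Harderian and skin glands, was at 4.61, 4.87, 4.16 and 4.43 in the Cpd6 mice, 6.72, 7.31, 6.96 and 7.41 in the Cpd18 mice and 6.89, 6.96, 7.03 and 7.76 in the vehicle mice, a difference of −2.58 (SE 0.19, adjusted p = 1.85e-05). Rdh11, a retinol dehydrogenase, differed by −0.59 (SE 0.09, adjusted p = 0.0114). Stra6, the receptor for retinol binding protein, was at 6.26, 5.71, 5.64 and 6.13 in the Cpd6 mice, 7.25, 7.63, 6.59 and 7.23 in the Cpd18 mice and 7.27, 5.65, 6.73 and 7.81 in the vehicle mice, a difference of −1.24 (SE 0.21, adjusted p = 0.0174). For Stra6 the second vehicle mouse, the one low in hair genes, lay among the Cpd6 mice, and the call was lost without Cpd6 replicate 2 or 3 or Cpd18 replicate 4. These were the 3 lower genes of 24 in retinoid metabolism, with 0 higher (median −0.10). In steroid metabolism 3 of 22 were lower and 1 higher (median −0.07). Besides Akr1c21, Hsd17b2, which inactivates estradiol and testosterone, was at 6.70, 7.35, 7.22 and 6.58 in the Cpd6 mice, 7.84, 8.87, 8.09 and 8.63 in the Cpd18 mice and 8.36, 8.10, 8.31 and 8.82 in the vehicle mice, a difference of −1.40 (SE 0.23, adjusted p = 0.0135). Hsd3b6, a 3-beta-hydroxysteroid dehydrogenase, differed by −1.21 (SE 0.18, adjusted p = 0.00687). Without Cpd6 replicate 1 or 4 the calls of Hsd17b2 and Rdh11 were lost, and that of Hsd17b2 also without Cpd18 replicate 4. The higher gene was Hsd17b13, a lipid droplet protein that metabolises retinol in humans, at 4.55, 4.39, 3.91 and 4.11 in the Cpd6 mice, 2.67, 2.75, 3.05 and 3.66 in the Cpd18 mice and 3.23, 3.22, 3.40 and 2.99 in the vehicle mice, a difference of 1.21 (SE 0.21, adjusted p = 0.0275). The other aldo-keto reductases of the family, Akr1c12, Akr1c13, Akr1c14 and Akr1c18, had 0.21, −0.12, 0.30 and 0.13 and were not called. In the P450 list 3 of 27, all among the study's own markers of gland atrophy, were lower and 0 higher (median −0.12). They were Cyp2b23, Cyp2j12 at 5.37, 5.33, 5.45 and 5.09 in the Cpd6 mice, 7.14, 7.18, 7.18 and 7.01 in the Cpd18 mice and 6.65, 6.89, 6.73 and 7.27 in the vehicle mice, and Cyp1a1, the enzyme induced through the aryl hydrocarbon receptor. Outside the list Cyp3a57 and Cyp2j8 were also called, at −1.11 and −1.08, so that 5 of the 33 tested genes of P450 families 1 to 4 were lower and 0 higher. Cyp2j12 differed by −1.82 (SE 0.12, adjusted p = 1.13e-05) and Cyp1a1 by −1.004 (SE 0.13, adjusted p = 0.00235).

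In 2 esterase families, chosen after their values were seen, 4 of 11 arylacetamide deacetylases were called lower (median −0.76) and 3 of 9 carboxylesterases (median −0.19), and 0 were higher. Aadacl4 was at 5.62, 6.09, 6.12 and 5.82 in the Cpd6 mice, 8.00, 8.44, 8.22 and 8.08 in the Cpd18 mice and 8.01, 8.14, 8.03 and 8.41 in the vehicle mice, a difference of −2.27 (SE 0.14, adjusted p = 8.29e-06). Aadacl4fm5 and AAdacl4fm3, further copies of Aadacl4 beside it on chromosome 4, differed by −1.94 (SE 0.21, adjusted p = 0.000513) and −1.13 (SE 0.10, adjusted p = 0.000119). The fourth called deacetylase was Aadacl2fm2, at −1.08. The carboxylesterases Ces4a, Ces1e and Ces1d differed by −1.78, −0.93 and −0.71, and the 6 others were not called.

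Of the 19 measured sebocyte markers, which overlap the lipid lists above, 6 were lower with Cpd6 and 0 higher, by limma. Over all tested probesets these shares were 0.41% and 0.0591%. They were Scd3, Pnpla5, Awat1, Awat2, Cidea and Far1. The median was −0.28, and 11 had an unadjusted p under 0.05, 10 of them lower and 1 higher, beside 3521 of all 28789 tested probesets. The mean signal of the list was 8.71, 8.98, 8.98 and 8.85 in the Cpd6 mice, 9.20, 9.46, 9.30 and 9.33 in the Cpd18 mice and 9.31, 9.30, 9.26 and 9.45 in the vehicle mice, so that the compounds did not overlap. The list was not lower throughout. Pparg, the receptor that drives sebocyte maturation, Fads2, a desaturase that makes sapienic acid in human sebum, and Krt79, a keratin of the gland's duct, had −0.15, 0.01 and 0.13 and were not called. The 1 higher marker was Gata6, a transcription factor of the gland's duct, with 0.40 (SE 0.14, adjusted p = 0.281). Mc5r, a melanocortin receptor of the gland, had −0.23. With the hair shaft score as a covariate 1 of the 19 was called, and without Cpd6 replicate 4, 3 were. Leaving out Cpd18 replicate 1 gave 8.

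The genes that were higher with Cpd6 were fewer and of mixed roles. Ccl1, a chemokine that draws T cells through CCR8, was at 6.44, 7.26, 6.84 and 7.36 in the Cpd6 mice, 4.66, 4.78, 4.20 and 4.40 in the Cpd18 mice and 4.33, 4.12, 4.29 and 4.31 in the vehicle mice, a difference of 2.46 (SE 0.20, adjusted p = 4.65e-05). Its lowest Cpd6 mouse was above its highest Cpd18 mouse by more than 3-fold. Ccl22, a chemokine of dendritic cells, was at 8.35, 8.65, 8.27 and 8.31 in the Cpd6 mice, 7.66, 7.63, 7.40 and 7.40 in the Cpd18 mice and 7.77, 7.71, 8.61 and 7.82 in the vehicle mice, a difference of 0.87 (SE 0.11, adjusted p = 0.0024). The third vehicle mouse lay among the Cpd6 mice there. These were the 2 called of 27 chemokines, of which 0 were lower and whose median was −0.11. Apart from the eosinophil-associated ribonucleases with Rnase2b, the other immune lists held no calls. Limma and the adjusted t-test called 0 of 14 chemokine receptors, 0 of 36 interleukins and receptors, 0 of 19 T cell markers, 0 of 24 macrophage markers and 0 of 18 dendritic cell markers, with 3, 8, 4, 9 and 4 at an unadjusted p under 0.05. As limma called 0.469% of all tested probesets, 0 calls in such short lists do not show that these cells were unchanged. The smallest p among interleukin genes belonged to Il1f5 and Il7r, with differences of −0.26 (SE 0.07, adjusted p = 0.169) and 0.59 (SE 0.16, adjusted p = 0.147). Among macrophage markers it belonged to Retnla and Folr2, with −0.45 (SE 0.10, adjusted p = 0.0885) and −0.43 (SE 0.14, adjusted p = 0.238). The mean of the macrophage markers was 6.89 to 7.19 in the Cpd6 mice, 7.05 to 7.41 in the Cpd18 mice and 7.74 to 8.07 in the vehicle mice, so the compounds overlapped and both lay below vehicle. Of 17 antimicrobial peptides 0 were called by either test, with 5 at an unadjusted p under 0.05. Among them Defb8 had −0.72 (SE 0.15, adjusted p = 0.067) and Defb1 had 0.38 (SE 0.11, adjusted p = 0.178).

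Per1, a repressor of the circadian clock, was at 8.47, 8.56, 8.50 and 8.65 in the Cpd6 mice, 7.37, 7.76, 7.64 and 7.59 in the Cpd18 mice and 7.88, 7.86, 7.91 and 7.53 in the vehicle mice, a difference of 0.95 (SE 0.10, adjusted p = 0.000513). It was the 1 called of 18 clock genes (median 0.11, 8 at an unadjusted p under 0.05). Its relatives Per2 and Per3 had 0.78 and 0.40, Arntl, the activator on the opposite arm, had −0.32 and Dbp had 0.16, and none of these was called. The time of day at which each mouse was sampled is not given in the sources used here. Wee1, a kinase that holds back mitosis and is under clock control in mouse liver, differed by 0.64 (SE 0.12, adjusted p = 0.0387). Of 25 cell division genes, 0 were called by limma or the adjusted t-test, with 3 at an unadjusted p under 0.05, the smallest p being those of Cenpf (−0.52) and Ttk (−0.31). Klk10, a secreted protease of the kallikrein family, was at 10.92, 10.96, 10.41 and 10.36 in the Cpd6 mice, 9.74, 10.08, 9.04 and 9.44 in the Cpd18 mice and 9.63, 8.98, 8.40 and 9.84 in the vehicle mice, a difference of 1.09 (SE 0.20, adjusted p = 0.0304). Sema6a, a membrane semaphorin, Nfatc1, a transcription factor of hair follicle stem cells, and Aldh3a1, an aldehyde dehydrogenase, were higher by 0.58, 0.42 and 0.34. Only 1 of the 3 tested probesets of Sema6a was called. The second probeset of Nfatc1 had 0.38 (SE 0.08, adjusted p = 0.0855). Of the higher named genes, Ccl1, Scd4, Per1 and Ccl22 kept their calls without any 1 mouse, though Scd4 and Ccl22 lost theirs with the hair covariate (adjusted p = 0.297 and 0.153), Degs2 lost it without Cpd6 replicate 1, and Klk10, Hsd17b13, Wee1, Sema6a, Nfatc1 and Aldh3a1 lost it in 4 to 7 of the 8 fits. Of the 17 higher calls, 4 held in all 8 fits that left out 1 mouse, and of the 118 lower calls, 65 did.

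Lists for other parts of the skin held no calls. Limma and the adjusted t-test called 0 of 29 differentiated keratinocyte markers, 0 of 10 basal keratinocyte markers, 0 of 22 fibroblast and collagen genes, 0 of 21 endothelial markers and 0 of 25 skeletal muscle markers, with 3, 2, 3, 2 and 5 at an unadjusted p under 0.05. Over all tested probesets 0.469% were called and 3521 of 28789 had an unadjusted p under 0.05. In lists this short 0 calls lie near that share and do not show that these parts were unchanged. Of 34 hair growth regulators 0 were called, with 11 at an unadjusted p under 0.05. The smallest p among the hair shaft genes were those of Krtap3-3 and Krt35, structural proteins of the hair shaft. Among the hair growth regulators they were those of Hoxc13, a regulator of hair keratins, and Nfatc1. The brighter probeset of Nfatc1 stood for it there, higher by 0.38 and not called, and its dimmer probeset was the called one. Krtap3-3 was at 3.37, 3.11, 2.44 and 5.13 in the Cpd6 mice, 3.51, 8.67, 9.45 and 10.18 in the Cpd18 mice and 11.31, 3.33, 10.11 and 11.19 in the vehicle mice. Hoxc13 was at 7.10, 7.15, 6.81 and 7.23 in the Cpd6 mice, 7.39, 9.29, 8.71 and 9.48 in the Cpd18 mice and 10.01, 7.70, 9.03 and 10.23 in the vehicle mice. Both showed the split within the Cpd18 and vehicle groups that the whole hair list showed, and their differences of −4.44 (SE 1.12, adjusted p = 0.133) and −1.65 (SE 0.34, adjusted p = 0.0662) were not called.

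The 41 genes that the study had chosen as markers of gland atrophy came from Studies 1 and 2, so the mice compared here played no part in the choice. A tested probeset carried the name of 38, and the other 3, Dgat2l6, A4gnt and Ccdc136, had none named for them in the annotation used and were not analysed here. Of the 38, 22 were lower, 1 was higher and 15 were not called, beside 0.41% and 0.0591% of all tested probesets. The median of the 38 was −0.88, and 31 had an unadjusted p under 0.05. At 26 the Cpd6 and Cpd18 mice did not overlap, beside 6.37% of all. The list mixes genes chosen as higher and genes chosen as lower with atrophy, so this median describes neither kind. Among those chosen as higher, only Ccl1 was called. Cyp2g1, Psca, Cxcl16, Defb6, Defb1, Ano1, Gch1, Sox7 and Pdlim4 were higher without a call, and Tnfrsf4 had −0.12. Those chosen as lower held all 22 lower calls. Among them Lamb1, Crat and Slc6a19 were lower without a call, and Cldn12 and Lrp6 had 0.002 and 0.02. The list was chosen on Cpd6 itself among others, and it is not independent of that compound. Its called genes include Scd3, Pnpla5, Abhd3, Acox2, Elovl5, Cers5, Sgpl1, Aox4, Hsd17b2, Apof, Rnase2b, Cyp2b23, Cyp2j12 and Cyp1a1, which the lists above also count. Those counts and this one are therefore not separate findings. The mean signal of the 38 was 7.34, 7.60, 7.62 and 7.46 in the Cpd6 mice and 8.22, 8.50, 8.36 and 8.36 in the Cpd18 mice. That mean also pools both kinds. The paper's own composite score sets the rising markers against the falling ones and separated these groups. That score was not computed here. Cxcl16, a chemokine that also exists on the cell membrane, was among the 15 not called. It was at 9.29, 9.36, 9.12 and 9.01 in the Cpd6 mice, 8.95, 9.24, 9.03 and 9.15 in the Cpd18 mice and 8.82, 8.85, 9.04 and 8.84 in the vehicle mice with 1 probeset. The 2 Cxcl16 probesets differed by 0.27 (SE 0.13, adjusted p = 0.422) and 0.10 (SE 0.10, adjusted p = 0.707), with 95% intervals of −0.01 to 0.56 and −0.11 to 0.32. The Cpd6 and Cpd18 mice overlapped at both. Gabra4, a receptor subunit for the transmitter GABA, and Adam3, a membrane protein known from sperm, were called lower by −1.90 and −1.75.

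Study 2 held another 4 mice given Cpd6 and 4 given vehicle, and none of its arrays was in the fit above. They entered only the mean over 48 arrays by which dim probesets were left out. Its Cpd6 minus vehicle difference was set beside each called probeset. In that comparison 83 of the tested probesets were lower (0.288%) and 26 higher (0.0903%). Of the 118 lower probesets here, 113 also had a lower mean with Cpd6 than with vehicle in Study 2, beside 45.6% of all tested probesets, and 56 were called there. The 56 are 47.5% of the 118 and 67.5% of the 83. Of the 17 higher ones, 14 also had a higher mean in Study 2 and 1, Ccl1, was called, which is 5.88% of the 17 and 3.85% of the 26. Serpinb6d had −3.55 here and −4.93 in Study 2, Akr1c21 had −3.70 and −3.49, and Acox2 had −1.83 and −1.78. Cyp1a1 was further from vehicle in Study 2, at −2.01, than from Cpd18 here, at −1.004. Per1 had 0.95 here and 0.26 in Study 2, and Sema6a had 0.58 here and −0.07 there. Whether the 2 studies differed at any of these genes was not tested, and the studies have different controls.

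**Figure D5:**
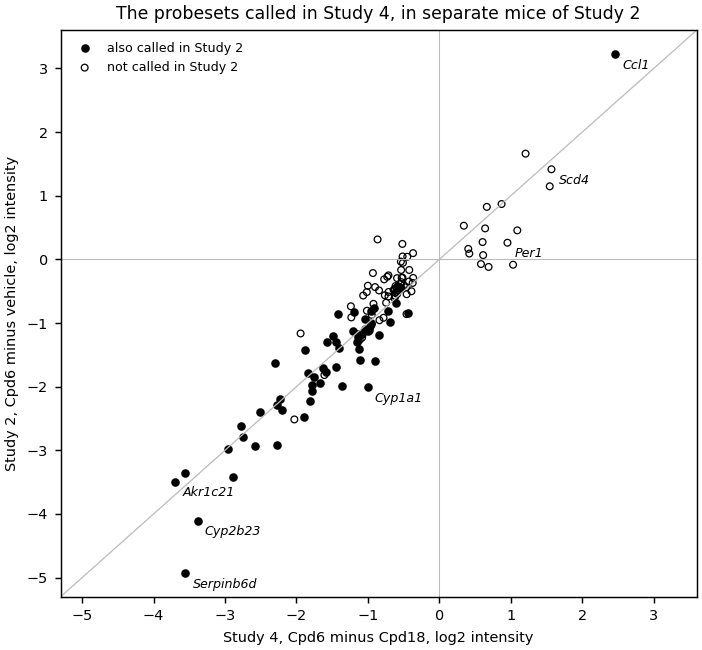
Each of the 135 called probesets by its difference between Cpd6 and Cpd18 in Study 4 (horizontal) and between Cpd6 and vehicle in separate mice of Study 2 (vertical), both on the log2 scale, with a line of equal values. Filled points were also called in Study 2, 56 of the lower and 1 of the higher, and most points of either kind lie in the lower left quadrant.

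The vehicle mice of Study 4 place each difference. The probesets were chosen for a difference between Cpd6 and Cpd18, and the counts below were not made over all tested probesets. At 113 of the 118 lower probesets and 16 of the 17 higher ones the vehicle mean was nearer to that of Cpd18 than to that of Cpd6, and at 112 of the 118 all 4 vehicle mice were above all 4 Cpd6 mice. The exceptions among named genes were Nxph4, a secreted ligand of neurexins, its neighbour Ndufa4l2, a mitochondrial protein induced by low oxygen, Reep6, a membrane-shaping protein, 1 of the 2 called probesets of Tmem164, by a margin of under 0.01, and Ccl22. Nxph4 was at 5.00, 4.75, 4.95 and 4.74 in the Cpd6 mice, 5.86, 5.85, 5.42 and 5.76 in the Cpd18 mice and 4.81, 5.07, 5.62 and 5.30 in the vehicle mice, a difference of −0.86 (SE 0.14, adjusted p = 0.0161). There the Cpd18 mice stood above most vehicle mice and the Cpd6 mice near the lower ones.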

How the data were processed

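RNA of whole skin was measured on a custom Affymetrix array, 1 array per mouse. The authors processed the scans with RMA (background correction, normalization across arrays and 1 value per probeset), and its version is not given in the sources used here. The deposited table holds the resulting linear intensities, as made by the authors, from 1.595 to 13570 for 38385 probesets on 48 arrays, and no fold change or p-value columns. Platform annotation gave 1 gene symbol to 24478 probesets, several to 65 and none to 13842. The number of arrays limits the precision. The absent call of the methods needs probe-level data, so the dimmest probesets were left out instead, those whose mean log2 intensity over 48 arrays was under 2.93, its 25th percentile.

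Base 2 logarithms of the 8 arrays were fitted with limma 3.58.1 (R 4.3.3), with 1 mean per group, an intensity trend and Benjamini-Hochberg adjustment over 28789 probesets. Every adjusted p of the report is from that fit unless another is named, and is 2-sided. The methods' one-way ANOVA for 2 groups is the t-test named here, and its adjustment was added. The labels do not say whether mice shared a cage, so p-values measure the spread between these mice. The lists do not hold every gene of a family. A gene in a list was represented by its brightest probeset. The report names the 15 largest decreases and increases among called genes whose mice did not overlap, the genes the paper discusses, up to 4 called members of each list (up to 2 by smallest p where none was called) and their family members. Genes outside the rule were added after their values were seen. They are Ces1d, Ces1e, Ces4a, AAdacl4fm3, Wfdc18, Nxph4, Ndufa4l2, Reep6, Tmem164, Gabra4, Adam3, Rnase1, Cyp51, Cyp3a57, Cyp2j8, Aadacl2fm2 and Gata6, and list members named with a bare difference beside a called gene. The members and lists were chosen with earlier results of these data known. The script was tested on simulated data with known changes. Alternatives were other filters, scalings and variance models, more arrays in the fit, the replicate number as a block, the t-test, an offset on the intensities, a mean over a gene's probesets, and leaving out each mouse. Promoter windows of RefSeq (GRCm38.p6) were searched on both strands. Figures were made with Python 3.11.15 and matplotlib 3.10.9.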

Additional observations from a re-analysis of the deposited data

Results flagged for a closer look

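Each group of 4 mice was checked for a mouse that stood apart from the other 3 by Dixon's criterion at 95%, for the named probesets and the list levels. Of 244 groups 5 held such a mouse, and chance alone gives about 1 in 20. Among the Cpd6 mice, replicate 4 had the highest mean signal of the hair shaft and inner root sheath markers, 5.67, against 3.52 to 3.76 in the other 3, and the highest Krt35, a hair keratin, at 2.60. The same mouse had the lowest Mpo, at 4.06, against 4.40 to 4.43 in the others. Replicate 2 of the Cpd6 mice had the highest mean of the interleukins and receptors, 6.54. Among the Cpd18 mice, replicate 2 had the highest mean of the T cell markers, 6.01.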

How the results depend on the processing

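The 135 called probesets, 23 study biomarker genes and 6 sebocyte markers stayed within 1.5 times of these counts under most alternatives. The calls moved to 206 with array weights, 74 without the intensity trend, 588 at the methods' threshold without adjustment (217 higher and 371 lower), 14 by the adjusted t-test and 46 with the hair shaft score as a covariate, which was added after the data were seen. Higher and lower calls kept a similar split under both scalings, 85.2% lower with array medians set equal and 85.8% after quantile normalization, beside 87.4%. The adjusted t-test called 6 biomarker genes and 1 sebocyte marker. Sebocyte markers called numbered 3 without the trend, 2 with all 48 arrays, 10 at the methods' threshold and 1 with the hair covariate. Without 1 mouse at a time the calls ranged from 77 (without Cpd6 replicate 4) to 590 (without Cpd18 replicate 1), also 82 without Cpd6 replicate 1 and 90 without Cpd18 replicate 4, the biomarker genes from 20 to 25 and the sebocyte markers from 3 (without Cpd6 replicate 4) to 8 (without Cpd18 replicate 1). All 8 such fits called 69 of the 135. With a replicate block 299 probesets were called, 132 of them among the 135. The deviations of same-numbered mice correlated at 0.251, 0.215, 0.0456 and 0.113, all positive. Those of differently numbered mice ranged from −0.216 to 0.176 and were mostly negative. The labels do not say that equal numbers were pairs, so the main fit did not pair them. Whether same-numbered mice shared a batch was not tested. The causes were not tested. Over 78 named probesets and 23 alternatives, 192 values lost their call, 33 gained one and 5 changed sign. Those were Dgat2 and Scd2, neither of them called. Without 1 mouse Dgat2 lay between −0.017 and 0.086 and Scd2 between −0.0917 and 0.0166, and with the hair covariate Dgat2 was at −0.0719 and Scd2 at 0.005. Of the 53 named calls, 35 held in all 8 fits without 1 mouse, and the other 18 reached adjusted p-values of 0.0539 to 0.173 at most. Signal was not set against background, and probesets with a mean under 2.93 were not tested.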
